A study of Homo sapiens with 2 samples.

Results

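The genes GFAP, S100B, AQP4, NES, SOX2, SOX9, OLIG2, VIM, CD44 and CHI3L1, which are used to tell astrocytes, neural stem cells and mesenchymal glioblastoma cells apart, were examined in U87 cells. They are 10 of the 41582 genes in the table, were taken as a list of names, and are represented by 41 of its 177816 transcripts. U87 is an established human glioblastoma cell line, labelled as wild type, which was grown in RPMI with fetal bovine serum. One group received DMSO, the vehicle, for 72 h, and the other received CCA-1.1, a curcumin analog, for 72 h; the concentration of CCA-1.1 used for sequencing is not given in the sources used here. Each group had 1 library, so the differences could not be checked against replicates, and p-values were not calculated. A single line in serum is a limited model of the identities that glioblastoma cells take in tissue.

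Astrocytes are recognized by GFAP, the intermediate filament protein of mature and reactive astrocytes, by the calcium-binding protein S100B and by AQP4, the water channel of their endfeet. Neural stem cells carry the filament protein nestin (NES) and the transcription factors SOX2 and SOX9, and OLIG2 marks oligodendrocyte progenitors and proneural glioma cells. Vimentin (VIM), the hyaluronan receptor CD44 and the secreted chitinase-like protein CHI3L1, also called YKL-40, are markers of the mesenchymal subtype of glioblastoma. The comparison of both libraries asks whether cells under CCA-1.1 hold the same identity genes at the same levels as cells under DMSO.

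Of these 10 genes, the mesenchymal ones had by far the highest summed TPM in both libraries. CHI3L1, VIM and CD44 together held 8771 TPM under DMSO and 7976 TPM under CCA-1.1, which is 99.5% of the summed TPM of the 10 genes in either library. NES, SOX2, SOX9 and OLIG2 together held 43.9 TPM under DMSO and 38.5 TPM under CCA-1.1. GFAP, S100B and AQP4 together held 0.41 TPM under DMSO and 0.59 TPM under CCA-1.1. TPM divides by transcript length, so these levels can be compared between genes. The groups hold unlike kinds of genes, with the transcription factors SOX2 and SOX9 set beside a filament, a receptor and a secreted protein. Their sums therefore describe levels of these genes and do not rank the identities themselves. None of the 10 genes passed 2-fold between the libraries, against 1.53% of all genes past 2-fold in either direction. That share includes non-coding genes, and passing 2-fold was rarer among protein-coding genes of similar level. Of 1499 whose mean reached 100 TPM, 0 were higher and 4 lower by over 2-fold. From 10 to 100 TPM, 5 of 6407 were higher and 8 lower, and from 1 to 10 TPM, 13 of 4135 were higher and 11 lower. The absence of such a gene among these 10 therefore does not set them apart.

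Since the 3 mesenchymal genes carried nearly all of this signal, the DNA just before their start sites is shown. Of the 10 genes, 6 (NES, CHI3L1, SOX2, VIM, CD44 and AQP4) matched a RefSeq promoter window of GRCh38.p14, which runs from 250 bases before the gene start to 50 bases after it; GFAP, S100B, SOX9 and OLIG2 did not match. Each sequence below gives the 100 bases before the start, 5′ to 3′ on the strand of the gene, and capitals mark TATAAA (the TATA box) or GGGCGG (the GC box) on either strand. CHI3L1 lies at chr1:203186705-203186804 on the minus strand, VIM at chr10:17228141-17228240 on the plus strand and CD44 at chr11:35139071-35139170 on the plus strand.
CHI3L1: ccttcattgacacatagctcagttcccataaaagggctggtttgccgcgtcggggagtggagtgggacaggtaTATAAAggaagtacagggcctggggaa
VIM: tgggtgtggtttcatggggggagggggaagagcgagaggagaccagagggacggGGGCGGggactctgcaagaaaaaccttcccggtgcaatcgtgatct
CD44: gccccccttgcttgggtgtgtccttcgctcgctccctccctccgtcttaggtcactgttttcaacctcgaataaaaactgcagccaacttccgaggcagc

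The TATAAA of CHI3L1 began at position -27 from the start, and its window held no GGGCGG. The VIM window held 1 GGGCGG, at position -46, and no TATAAA. In CD44 the GGGCGG motifs lay farther out, at positions -170 and -152, so the stretch shown has no capitals. Over all 35116 promoter windows, TATAAA was found in 11.5% and GGGCGG in 45.0%. TGANTCA, the AP-1 motif, was searched on both strands and was found in none of the 8 windows of these 6 genes, against 7.71% of all windows. CpG dinucleotides numbered 7 in the CHI3L1 window, 10 in VIM and 18 in CD44, where the median of all windows was 14. A motif match is a description of these letters and not a measured binding site.

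CHI3L1 (Entrez identifier 1116) is encoded on chromosome 1 (GRCh38.p14) from 203178931 to 203186704. It was at 4947 TPM under DMSO and 4397 TPM under CCA-1.1, the 12th highest of 19938 protein-coding genes in both libraries. Under CCA-1.1, CHI3L1 was thus 11.1% lower, which on the log2(TPM + 1) scale is a difference of -0.17. Among the 1499 protein-coding genes whose mean reached 100 TPM, the 5th and 95th percentiles of the difference were -0.31 and 0.33, so CHI3L1 lay inside the range of most abundant genes.

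VIM (Entrez identifier 7431, chromosome 10, 17228241 to 17237593) was at 3217 TPM under DMSO and 3106 TPM under CCA-1.1. Its rank among protein-coding genes was 19 under DMSO and 21 under CCA-1.1, and its difference was -0.05. With a level 3.43% lower in the CCA-1.1 library, VIM lay closest to no difference among the mesenchymal genes. In DMSO, VIM was 7846 times as high as GFAP and 427 times as high as NES, the other glial filament genes of the group.

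CD44 (Entrez identifier 960, chromosome 11, 35139171 to 35232402) was at 607 TPM under DMSO and 473 TPM under CCA-1.1. This is 22.2% lower under CCA-1.1 and a difference of -0.36. Of the protein-coding genes whose mean reached 100 TPM, 3.20% had a lower difference than CD44. CD44 was thus below the 5th percentile of its level class, but did not reach 2-fold.

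**Figure D1:**
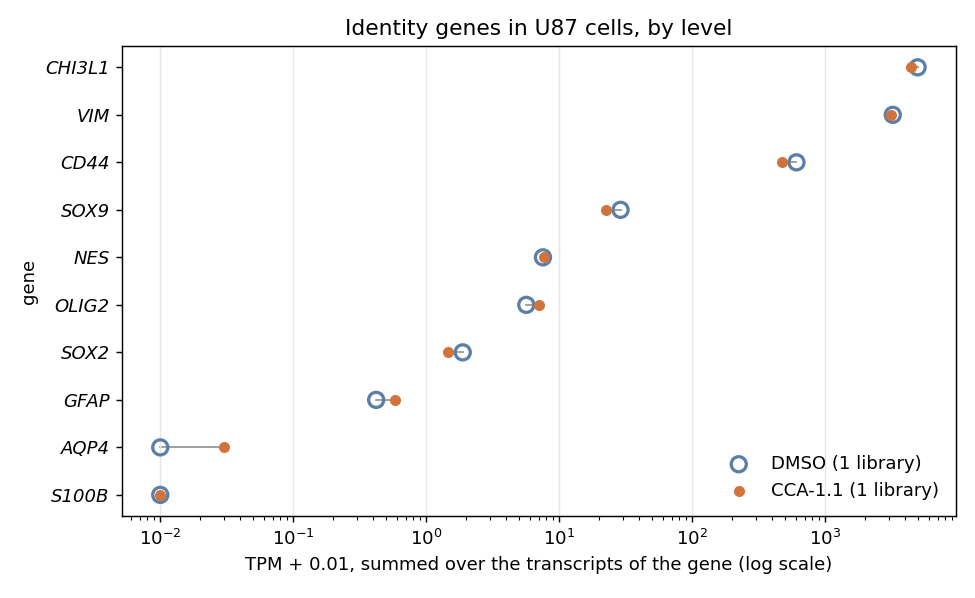
The x axis gives the TPM of each identity gene plus 0.01 on a log scale, with open circles for the DMSO library and filled circles for the CCA-1.1 library (1 library each); the genes are ordered by mean TPM. CHI3L1, VIM and CD44 sit at the top, GFAP is below 1 TPM, and S100B is listed at 0 in both libraries.

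Of the stem cell and progenitor genes, SOX9 was the highest. SOX9 (Entrez identifier 6662, chromosome 17, 72121020 to 72126416), a SOX factor of glial specification, was at 28.9 TPM under DMSO and 22.4 TPM under CCA-1.1. This is 22.4% lower, a difference of -0.35, and 2.73% of the 6407 protein-coding genes with a mean from 10 to 100 TPM had a lower difference. SOX9 and CD44 were the 2 members below the 5th percentile of their own level class.

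SOX2 (Entrez identifier 6657, chromosome 3, 181711925 to 181714436), a factor that keeps neural stem cells undifferentiated, was at 1.87 TPM under DMSO and 1.45 TPM under CCA-1.1. On the log2(TPM + 1) scale its difference was -0.23, and without a pseudocount the log2 ratio was -0.37, which is as large as that of SOX9. SOX9 was 15.4 times as high as SOX2 in DMSO and 15.5 times as high in CCA-1.1. Both SOX genes were thus lower by nearly the same proportion, and the difference of SOX2 lay inside the range of protein-coding genes of 1 to 10 TPM, whose 5th percentile was -0.37.

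NES (Entrez identifier 10763, chromosome 1, 156668763 to 156677407) was at 7.53 TPM under DMSO and 7.62 TPM under CCA-1.1, a difference of 0.02. This filament protein of neural progenitors had the most even level of all members above 1 TPM. OLIG2 (Entrez identifier 10215, chromosome 21, 33025935 to 33029185) was at 5.64 TPM under DMSO and 7.03 TPM under CCA-1.1. It was 24.6% higher, a difference of 0.27, where the 4135 protein-coding genes with a mean from 1 to 10 TPM had a 95th percentile of 0.44.

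The astrocyte genes were at or near 0. GFAP (Entrez identifier 2670, chromosome 17, 44903159 to 44915500) was at 0.41 TPM under DMSO and 0.57 TPM under CCA-1.1, a difference of 0.16, and 34.8% of protein-coding genes were lower in the DMSO library. AQP4 (Entrez identifier 361, chromosome 18, 26852038 to 26865803) was listed at 0 under DMSO and at 0.02 TPM under CCA-1.1. Rounding of the deposited TPM alone allows a difference of AQP4 from -0.04 to 0.08, so its direction is not known. S100B (Entrez identifier 6285, chromosome 21, 46598604 to 46605082) was listed at 0 in both libraries.

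The order of the genes by level ran in both libraries from CHI3L1 over VIM, CD44, SOX9, NES, OLIG2 and SOX2 to GFAP. AQP4 and S100B came last, both listed at 0 under DMSO. Whether neighbours in this order, such as NES and OLIG2, differ in level cannot be said with 1 library each. CHI3L1, VIM, CD44, SOX9 and SOX2 were lower in CCA-1.1, GFAP, NES and OLIG2 were higher, and no direction is given for AQP4 and S100B. On the log2(TPM + 1) scale CD44 and SOX9 differed most, but with a pseudocount of 0.1 TPM the difference of GFAP was 0.39, and with curated transcripts only that of OLIG2 was 0.41, both larger in size than those of CD44 and SOX9.

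**Figure D2:**
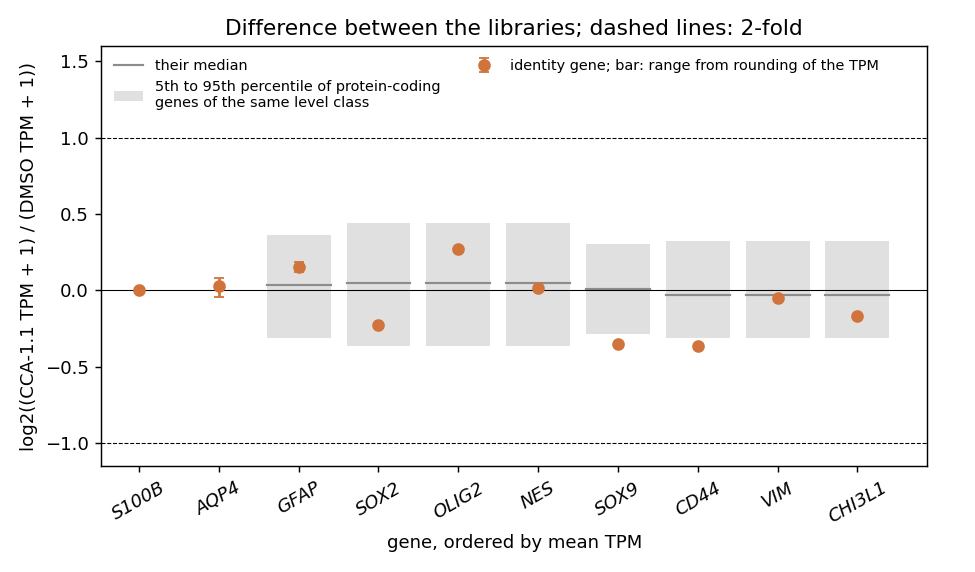
Points give the difference of each identity gene on the log2((CCA-1.1 TPM + 1) / (DMSO TPM + 1)) scale, and error bars give the range that rounding of the TPM allows. Grey boxes show the 5th to 95th percentile of protein-coding genes in the same class of mean TPM, and grey lines show their median. No gene reaches the dashed lines at 2-fold, and SOX9 at -0.35 and CD44 at -0.36 lie below their boxes; S100B and AQP4 are below the lowest class and have no box.

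Several members have more than 1 transcript, and the share of each was compared between libraries. Kallisto divides reads that match several transcripts by estimation, so shares of similar transcripts are less certain than gene sums. Of the 41 transcripts of these genes, 16 were listed at 0 in both libraries and 2 passed 2-fold, both of CHI3L1, against 2.23% of all transcripts in the table past 2-fold.

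CD44 was represented almost fully by NM_001001391.2, which encodes the standard form without the variable exons. This transcript was at 581 TPM under DMSO and 453 TPM under CCA-1.1, and its share of the gene was 95.7% and 95.9%. The next transcript, NM_001202555.2, was at 16.5 TPM under DMSO and 10.9 TPM under CCA-1.1. NM_000610.4, the long form with the variable exons, was listed at 0 in both libraries. The lower CD44 sum in CCA-1.1 therefore lay mostly in the standard form, with the other 12 transcripts at 25.9 TPM under DMSO and 19.3 TPM under CCA-1.1. ESRP1, an epithelial splicing factor that favours variable CD44 exons, was at 0.03 TPM under DMSO and 0.02 TPM under CCA-1.1 (named after its value was seen).

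The curated CHI3L1 transcript NM_001276.4 held 89.1% of the gene in DMSO, at 4408 TPM, and 87.9% in CCA-1.1, at 3863 TPM. The predicted model XM_047442848.1 followed with 370 TPM under DMSO and 348 TPM under CCA-1.1. Past 2-fold were the models XM_047442847.1, at 39.7 TPM under DMSO and 5.85 TPM under CCA-1.1, and XM_047442841.1, at 4.96 TPM and 0.96 TPM. XM_047442840.1 (named after its value was seen) went the other way, from 57.2 TPM under DMSO to 101 TPM under CCA-1.1. The 7 models together were level, at 539 TPM under DMSO and 534 TPM under CCA-1.1.

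In OLIG2, the curated NM_005806.4 was at 4.93 TPM under DMSO and 6.87 TPM under CCA-1.1, and the model XM_005260908.2 was at 0.71 TPM and 0.16 TPM. The curated share was 87.4% under DMSO and 97.7% under CCA-1.1. GFAP was carried by NM_002055.5, the main astrocyte form, with 0.34 TPM under DMSO and 0.26 TPM under CCA-1.1, and by NM_001363846.2 with 0.03 TPM and 0.22 TPM. The share of NM_002055.5 was 82.9% under DMSO and 45.6% under CCA-1.1, but these shares rest on values below 1 TPM.

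Genes that overlap a member on the genome were checked, because whether strand was kept in counting is not given in the sources used here. VIM-AS1, antisense to VIM, was at 15.1 TPM under DMSO and 13.6 TPM under CCA-1.1, and the VIM level was 213 and 228 times as high. CD44-AS1 was at 1.09 TPM under DMSO and 1.95 TPM under CCA-1.1, SOX2-OT at 0.19 TPM and 0.16 TPM, and MYBPH, which overlaps CHI3L1, at 5.78 TPM and 5.14 TPM. GFAP and AQP4 were lower than a gene that overlaps them. DNAAF19, which overlaps GFAP, was at 5.12 TPM under DMSO and 4.58 TPM under CCA-1.1, and AQP4-AS1 at 0.04 TPM and 0.05 TPM.

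The levels of other genes in the families of the filament, S100 and SOX members were examined as well. VIM made up 78.9% under DMSO and 79.9% under CCA-1.1 of the summed TPM of 13 intermediate filament genes, keratins not included. LMNA, the A-type nuclear lamin, followed with 709 TPM under DMSO and 621 TPM under CCA-1.1, and LMNB2 was at 130 TPM and 140 TPM. PLEC, which links filaments to other structures, was at 170 TPM under DMSO and 144 TPM under CCA-1.1, the largest lower value of this list with a difference of -0.24.

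S100B was the one S100 gene listed at 0 in both libraries among 18, while S100A6 was at 22119 TPM under DMSO and 19563 TPM under CCA-1.1, or 72.0% and 70.6% of the family. S100A11 was at 3448 TPM under DMSO and 3144 TPM under CCA-1.1, and S100A10 was at 2562 TPM and 2527 TPM. S100A8, which with S100A9 forms the inflammatory protein calprotectin, was at 5.63 TPM under DMSO and 1.07 TPM under CCA-1.1, a difference of -1.68. It was the single gene past 2-fold on any of the lists whose mean reached 1 TPM, where 1.67% of all such genes were lower by over 2-fold and 1.89% were higher. Those shares include non-coding genes. Of the 4135 protein-coding genes with a mean from 1 to 10 TPM, the class of S100A8, 11 were lower and 13 higher by over 2-fold. S100A9 (named after its value was seen) was at 5.53 TPM under DMSO and 2.46 TPM under CCA-1.1, a difference of -0.92. Without the pseudocount, S100A9 was 2.25-fold lower, and HAS2 of the CD44 and hyaluronan list was 2.08-fold higher. AQP5 of the aquaporin and endfoot list, at 0.82 TPM under DMSO and 1.91 TPM under CCA-1.1, was then past 2-fold as well. S100A3 was at 773 TPM and 660 TPM, and S100A2 at 78.3 TPM and 87.6 TPM.

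SOX9 was the highest SOX gene in both libraries and held 48.3% of the TPM of 19 SOX genes under DMSO and 40.7% under CCA-1.1. SOX13 was at 12.04 TPM under DMSO and 13.5 TPM under CCA-1.1, SOX12 at 7.92 TPM and 7.82 TPM, and SOX15 at 5.98 TPM and 6.23 TPM. SOX1, SOX3 and SOX21, which are active in neural progenitors, were among the 6 SOX genes listed at 0 in both libraries. SOX10, a factor of the oligodendrocyte lineage, was listed at 0 as well.

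Further genes of the same identities were examined as lists. In the mesenchymal list, 34 of 36 genes reached a mean of 1 TPM, and none passed 2-fold. Of these 34 genes, 29 were lower in CCA-1.1 by any amount, where 43.8% of all genes with that mean were lower. Of the 20 list genes whose mean reached 100 TPM, 18 were lower, where 57.8% of protein-coding genes at that level were lower. The median difference of the list was -0.18, beside 0.03 for all genes whose mean reached 1 TPM and -0.03 for protein-coding genes whose mean reached 100 TPM. These counts describe 2 libraries and carry no test.

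FN1, the matrix protein fibronectin, was at 11241 TPM under DMSO and 9088 TPM under CCA-1.1, a difference of -0.31. TNC, the matrix protein tenascin C, had the largest lower value of the mesenchymal list, with 163 TPM under DMSO and 96.7 TPM under CCA-1.1 and a difference of -0.74. BHLHE40, a transcription factor put forward as a regulator of the mesenchymal state, had the largest higher value, with 183 TPM and 242 TPM and a difference of 0.40. The other transcription regulators of the list, named after their values were seen, lay on both sides. CEBPB was at 521 TPM under DMSO and 401 TPM under CCA-1.1, CEBPD at 75.6 TPM and 50.8 TPM, STAT3 at 74.6 TPM and 64.8 TPM, and FOSL2 at 64.7 TPM and 54.0 TPM. FOSL1 had a difference of -0.10, YAP1 of -0.19, RUNX1 of -0.03, WWTR1 of 0.02 and RELB of 0.12.

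Genes around CD44 also lay mostly on the lower side. Of 16 measured genes of hyaluronan synthesis, breakdown and CD44 binding, 13 were lower and 3 were higher, with a median of -0.20, where 43.8% of all genes at 1 TPM or more were lower and their median was 0.03. SRGN, a proteoglycan that binds CD44, was at 537 TPM under DMSO and 412 TPM under CCA-1.1, SPP1 (osteopontin) at 98.7 TPM and 86.4 TPM, and MSN (moesin, which ties CD44 to actin) at 212 TPM and 198 TPM. MMP14, a membrane protease that sheds CD44, had the largest lower value with 104 TPM and 71.9 TPM, and EZR (ezrin) was at 13 TPM and 14.4 TPM. The hyaluronan synthases, named after their values were seen, went apart. HAS1 was at 57.5 TPM under DMSO and 40.0 TPM under CCA-1.1, and HAS2 was at 2.53 TPM and 5.27 TPM, a difference of 0.83.

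Of 7 measured genes related to CHI3L1, 5 were lower and 2 higher, with a median of -0.25, beside the same 43.8% of all genes. CHI3L2, its closest relative, was at 89.3 TPM under DMSO and 73.0 TPM under CCA-1.1, and CHI3L1 was 55.4 and 60.2 times as high. TMEM219, a subunit of a CHI3L1 receptor, was at 145 TPM under DMSO and 131 TPM under CCA-1.1. LGALS3BP was at 654 TPM and 520 TPM, a difference of -0.33 and the largest lower value of this list among genes whose mean reached 10 TPM. IL13RA2, a receptor of CHI3L1 below that level (named after its value was seen), was at 2.17 TPM under DMSO and 1.17 TPM under CCA-1.1, a difference of -0.55.

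The astrocyte and stem cell lists had medians above 0, which were below 0 when only genes whose mean reached 10 TPM were kept (-0.13 and -0.013). Of 14 measured astrocyte genes, 8 were higher and 6 lower in CCA-1.1, with a median of 0.07, and 9 further genes of the list had a mean under 1 TPM. The 42.9% that were lower are near the 43.8% of all genes whose mean reached 1 TPM, which had a median of 0.03. CLU was at 569 TPM under DMSO and 616 TPM under CCA-1.1, CST3 at 356 TPM and 299 TPM, and GJA1, the gap junction protein of astrocytes, at 270 TPM and 254 TPM. SLC1A3, an astrocyte glutamate transporter, had the largest lower value, at 42.6 TPM and 28.6 TPM with a difference of -0.56, and ALDOC, at 173 TPM and 198 TPM, had the largest higher value among the list genes whose mean reached 10 TPM. ALDH1L1, an astrocyte marker below that level (named after its value was seen), was at 3.42 TPM under DMSO and 6.05 TPM under CCA-1.1, a difference of 0.67 and the largest of the list in either direction. The abundant genes of this list are also made outside astrocytes. Neither these levels nor those of the mesenchymal genes were set beside cells of another identity, so how particular they are was not tested.

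Of 8 measured stem cell and progenitor genes, 5 were higher and 3 lower, with a median of 0.21, and 16 further genes of the list had a mean under 1 TPM. The share that was lower, 37.5%, stands beside 43.8% of all genes whose mean reached 1 TPM, which had a median of 0.03. ID3 and ID1, inhibitors of differentiation, were at 167 TPM and 106 TPM under DMSO and at 120 TPM and 75.9 TPM under CCA-1.1, with differences of -0.47 and -0.48. BMI1, a polycomb protein of self-renewal, was at 34.9 TPM under DMSO and 34.5 TPM under CCA-1.1, and MSI2 was at 31.5 TPM and 37.4 TPM. PROM1, which encodes the stem cell antigen CD133 (named after its value was seen), was at 0.30 TPM under DMSO and 0.13 TPM under CCA-1.1.

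Markers of other cell types were summed in both libraries, although U87 is a single cell line. Fewer cells of a type and less RNA per cell cannot be told apart in bulk RNA. Of 8 fibroblast and mural cell markers, 4 were lower and 4 higher, where 43.8% of all genes whose mean reached 1 TPM were lower. None of these markers was at 0, and their sum was 893 TPM under DMSO and 732 TPM under CCA-1.1, most of it COL1A2 with 564 TPM and 443 TPM. Of 11 microglia and macrophage markers, 4 were listed at 0 (AIF1, P2RY12, C1QA and C1QB). Their sum of 578 TPM under DMSO and 457 TPM under CCA-1.1 was mostly CD68 with 494 TPM and 397 TPM. TMEM119, also on this list, was at 79.5 TPM under DMSO and 56.3 TPM under CCA-1.1. The 7 endothelial markers summed to 5.63 TPM under DMSO and 4.68 TPM under CCA-1.1, with PECAM1 at 3.41 TPM and 2.71 TPM, and the 7 epithelial markers to 25.5 TPM and 28.3 TPM, with KRT8 at 18.8 TPM and 21.4 TPM. The fibroblast, microglia and endothelial sums, each carried mostly by its highest gene, were lower in the CCA-1.1 library, as were most mesenchymal genes. A sum over neuron markers was lower as well, at 318 TPM under DMSO and 291 TPM under CCA-1.1, while the epithelial sum was higher. Any link between these sums and the mesenchymal genes was not tested.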

How the data were processed

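mRNA was sequenced from U87 cells after 72 h with DMSO or CCA-1.1, with 1 library per group. The authors checked the reads with FastQC 0.11.9 and MultiQC 1.1, per the submitters' processing notes, and quantified transcripts by pseudo-alignment in Kallisto, using the human GRCh38.p14 transcripts. The deposited values are TPM per transcript, rounded to 0.01 TPM for the genes described here. TPM keeps no read depth, so no interval for counting error was calculated, and the depth of the libraries is unknown from the values used here.

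Transcript identifiers were matched to RefSeq gene symbols of GRCh38.p14 without their version, for 169966 of 177816 transcripts. TPM was then summed per gene. Differences are log2((CCA-1.1 TPM + 1) / (DMSO TPM + 1)), which makes changes of low genes look smaller, and a value above 1 or below -1 counted as past 2-fold. Neither tests nor p-values were used, since there was 1 library per group. List genes needed a mean of at least 1 TPM. Differences of the identity genes whose mean reached 0.1 TPM were set beside those of protein-coding genes in 4 classes of mean TPM. List medians were set beside that of all genes whose mean reached 1 TPM.

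The genes described and all gene lists were chosen with earlier results of these data known. Named from each list were its 3 highest genes, each gene past 2-fold and the largest difference in each direction among genes whose mean reached 10 TPM; genes outside this rule, including those named as listed at 0, were chosen after their values were seen, and 1 gene that the rule names is not reported here. Promoter windows came from RefSeq, and their motifs were chosen after seeing the data. The alternatives were pseudocounts of 0.1 and 0.01 TPM, median-ratio scaling, curated or protein-coding transcripts only, and other minimum levels. The calculation was run on simulated data, with planted changes well past 2-fold, every level raised and little noise. That run checked the calculation only and does not show how it does at low levels or at the spread seen here. No column of values was left unused. Python 3.11.15, numpy 2.4.6, pandas 2.3.3 and matplotlib 3.10.9 were used.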

Additional observations from a re-analysis of the deposited data

How the results depend on the processing

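No paired analysis was possible because each group had 1 library, and no library could be left out. Since no replicate exists, a log2 value was counted as moved when it shifted by more than 0.1. None of the 64 recomputed differences of the identity genes changed sign, and 7 moved, all in GFAP, AQP4, SOX2 or OLIG2. With a pseudocount of 0.01 TPM, 1 identity gene passed 2-fold, AQP4, because it was listed at 0 in DMSO. With 0.1 or 0.01 TPM, 1 gene of the CD44 and hyaluronan list, 1 of the aquaporin and endfoot list and 2 S100 genes passed 2-fold, and with a minimum mean of 10 TPM 0 S100 genes did, since S100A8 was left out. With that minimum, the median was -0.13 for the astrocyte list, -0.013 for the stem cell list and -0.19 for the intermediate filament list. Without a minimum, it was 0 for the stem cell and SOX lists and -0.026 for the aquaporin and endfoot list, as genes listed at 0 entered. Of 79 recomputed list medians, 8 changed sign or became 0, all in the astrocyte, stem cell, intermediate filament and SOX lists. With curated transcripts only, the median of the CHI3L1 relatives was -0.12, and NM_001276.4 made up 100% of CHI3L1 in both libraries and NM_005806.4 100% of OLIG2 in DMSO, by construction. Of the mesenchymal genes, 85.3% were lower as reported, and from 76.5% to 87.5% were lower under the alternatives, the least with scaling to the median ratio of genes whose mean reached 100 TPM, which was chosen after seeing the data. The absence of read depth limits every value under 1 TPM.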

Other observations

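Genes of neurons and of the oligodendrocyte lineage were also present in part. Of 10 neuron markers, 7 reached a mean of 1 TPM, of which 4 were higher and 3 lower in CCA-1.1, beside 43.8% of all genes with that mean lower. TUBB3, the beta-tubulin used as a neuronal marker, was the highest with 216 TPM under DMSO and 194 TPM under CCA-1.1, while STMN2 was listed at 0 in both libraries. Of 19 oligodendrocyte and proneural genes, 15 had a mean under 1 TPM. The 4 that were measured had a median difference of 0.10, beside 0.03 for all genes whose mean reached 1 TPM. CNP was at 31.1 TPM under DMSO and 27.4 TPM under CCA-1.1, BCAN (brevican) at 23.3 TPM and 24.7 TPM, and CSPG4 (NG2) at 12.4 TPM and 13.6 TPM. OLIG1 and SOX10, usual partners of OLIG2, and NKX2-2 were listed at 0 in both libraries, although OLIG2 itself was at 5.64 TPM and 7.03 TPM.

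Of the 12 aquaporins examined, AQP4 included, AQP9 was the highest, with 13.9 TPM under DMSO and 12.5 TPM under CCA-1.1 (named after its value was seen). Of 10 measured genes of the aquaporin and endfoot list, 4 were higher and 6 lower, with a median of -0.13. Over all genes whose mean reached 1 TPM, 43.8% were lower and the median was 0.03. Transcripts of proteins that anchor AQP4 at the astrocyte endfoot were higher than AQP4 itself, with DAG1 at 53.8 TPM under DMSO and 42.3 TPM under CCA-1.1, and SNTB1 at 36.3 TPM and 33.0 TPM. SNTB2 was at 22.2 TPM and 17.1 TPM, the largest lower value of the list, and DTNB was at 29.0 TPM and 30.7 TPM.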
